A study of Sus scrofa with 12 samples.

Results

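The genes described here are HSPA5, HERPUD1, XBP1, DNAJB9, DDIT3 and SDF2L1, which belong to the unfolded protein response of the endoplasmic reticulum (ER). They were chosen by symbol, and each symbol stood on 1 row, so the set is 6 of the 30461 gene rows measured in epithelial cells of the pig oviduct. All 6 passed the filter on low counts, as did 14070 genes in all. The study measured 3′ mRNA, which reads the polyadenylated end of each transcript, in 12 libraries. A group of 4 libraries came from single cells that had been scraped off the oviduct, called fresh cells below. Another 4 came from spheroids, which are 3-dimensional clusters of cells, formed in DMEM/F12, and 4 came from spheroids formed in a medium labelled incubation medium. All groups carry the same tissue and cell type labels, oviduct and epithelial cells. The library names carry FBS for the first kind of spheroid and Diff for the other. Neither term is explained, and the composition of the media, the time in culture, the breed, age and cycle stage of the pigs, and whether libraries came from separate animals or pooled ones are not given in the sources used here.

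Secreted and membrane proteins fold inside the ER. HSPA5, also called BiP, is the main chaperone there: it binds unfolded chains and, when few are present, also holds the stress sensors IRE1, PERK and ATF6 in an inactive state. When unfolded protein accumulates, IRE1 splices the mRNA of XBP1 into the form that encodes an active transcription factor, ATF6 is cleaved into one, and PERK slows translation while favouring ATF4 and, through it, DDIT3. Their targets include chaperones and the machinery of ER-associated degradation (ERAD), which returns misfolded proteins to the cytosol for disposal. Secretory cells of the oviduct export large amounts of glycoprotein, oviductin (OVGP1) among them. Counts per gene do not separate spliced from unspliced XBP1, and no sequence of the genes is printed because none was in the reference tables used.

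Libraries held 5045218 to 8603809 counts, and every spheroid library was deeper than every fresh one. The 6 genes together made up 0.368 to 0.596% of the gene counts in the fresh libraries, 0.0627 to 0.0641% in the DMEM/F12 libraries and 0.0859 to 0.0966% in the incubation medium libraries. Epithelial markers (6 rows from a list of 8 genes) were present in every group. They summed to 3727 to 4372 CPM (counts scaled to a common library total) in fresh cells. The sum was 5956 to 7393 in DMEM/F12 spheroids and 4141 to 6147 in incubation medium spheroids. CDH1, KRT8 and KRT18 were higher in both kinds of spheroid. EPCAM held 777 to 1049 CPM in fresh cells, 513 to 804 in DMEM/F12 and 596 to 929.5 in incubation medium, with overlap. CLDN4 held 1391 to 2054 CPM in fresh cells, 2436 to 3437 in DMEM/F12 and 893 to 1071 in incubation medium. Levels below are CPM on library sizes scaled by TMM, a method that takes most genes not to differ between libraries, and are compared within a gene only. Differences are log2 fold changes from edgeR's quasi-likelihood test, with p-values adjusted by Benjamini-Hochberg over all genes tested and called below 0.05.

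All 6 genes were lower in both kinds of spheroid than in fresh cells, and in each of them the mean was highest in fresh cells, lower in incubation medium spheroids and lowest in DMEM/F12 spheroids. The chaperone HSPA5, the degradation factor HERPUD1 and the transcription factor DDIT3 differed most from fresh cells, by 7.60 to 10.97-fold in DMEM/F12 spheroids and by 3.63 to 6.54-fold in incubation medium spheroids. XBP1, DNAJB9 and SDF2L1 differed less, by 2.43 to 2.87-fold and by 1.85 to 2.42-fold. Between the media, HSPA5, HERPUD1, DNAJB9 and DDIT3 were higher in incubation medium by 1.39 to 2.09-fold. XBP1 and SDF2L1 did not pass the test in the main fit, but did with the replicate number as a block. The plot of the level of the 6 genes in each library shows these values.

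**Figure D1:**
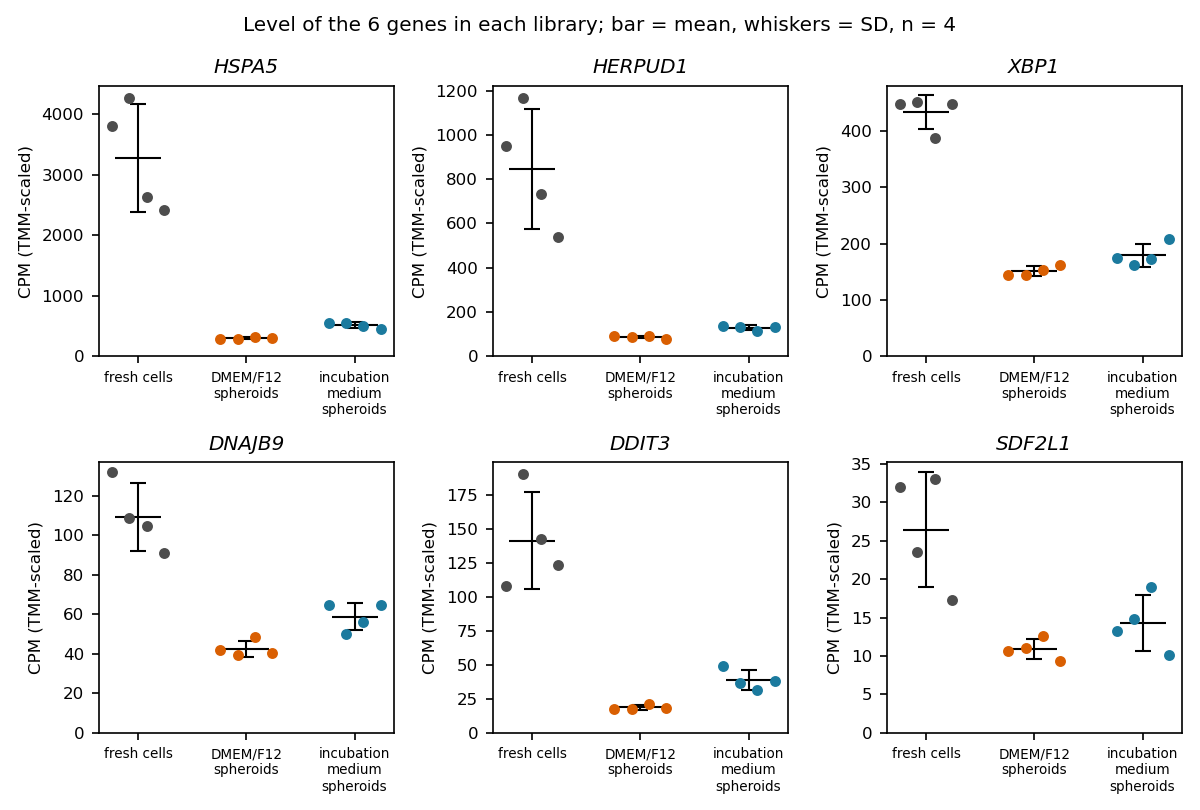
Level of each gene in every library, in TMM-scaled CPM on a linear axis that starts at 0, with 1 panel per gene, 1 point per library in the order of the replicate numbers, a bar at the mean and whiskers of 1 SD (n = 4). Fresh cells lie above both kinds of spheroid in every panel apart from SDF2L1, where fresh replicate 4 (17.2 CPM) lies below incubation medium replicate 3 (19.0 CPM).

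HSPA5 stood at 3797, 4265, 2623 and 2421 CPM in fresh replicates 1 to 4. It stood at 290.2, 291, 316 and 297 CPM in the DMEM/F12 spheroids, and at 552, 543, 505 and 447 CPM in the incubation medium spheroids. The 3 groups did not overlap, and the fresh libraries fell into a higher pair and a lower pair. Group means were 3277 ± 896, 299 ± 12.1 and 511 ± 47.5 CPM (SD, n = 4). HSPA5 was thus 10.97-fold lower in DMEM/F12 spheroids, a log2 fold change of -3.46 (SE 0.166, edgeR adjusted p = 6.08e-10), and 6.41-fold lower in incubation medium spheroids, a log2 fold change of -2.68 (SE 0.160, edgeR adjusted p = 4.3e-09). Of all genes tested, 2.91% had a lower log2 fold change than HSPA5 in DMEM/F12 and 5.98% in incubation medium. Between the media it was 1.71-fold higher in incubation medium, a log2 difference of 0.78 with a 95% interval of 0.45 to 1.10 (SE 0.152, edgeR adjusted p = 0.00202). In the counts of a single library, HSPA5 made up 0.409% of gene counts in fresh replicate 2 (95% Wilson interval 0.404 to 0.415%) and 0.0307% in DMEM/F12 replicate 1 (0.0295 to 0.0319%), intervals that cover counting error only.

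DNAJB9, a co-chaperone of HSPA5 also called ERdj4 that takes misfolded proteins towards degradation, stood at 132, 109, 105 and 90.9 CPM in the fresh libraries. Its levels were 41.8, 39.5, 48.4 and 40.3 CPM in DMEM/F12 spheroids, and 64.7, 50.2, 56.1 and 64.6 CPM in incubation medium spheroids. No library of one group reached the range of another, although incubation medium replicate 2 was within 2 CPM of DMEM/F12 replicate 3. The log2 fold change against fresh cells was -1.36 in DMEM/F12 (SE 0.121, edgeR adjusted p = 1.92e-07) and -0.89 in incubation medium (SE 0.119, edgeR adjusted p = 1.08e-05). The difference between the media was 0.47 (SE 0.121, edgeR adjusted p = 0.0109).

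SDF2L1 is an ER-resident protein that works with HSPA5 and its co-chaperone DNAJB11, and was the gene with the fewest counts of the 6, with 1386.5 over all 12 libraries. It stood at 32.0, 23.5, 33.1 and 17.2 CPM in fresh cells, at 10.6, 11.04, 12.6 and 9.37 CPM in DMEM/F12 spheroids and at 13.2, 14.8, 19.0 and 10.1 CPM in incubation medium spheroids. Replicate 3 was the highest and replicate 4 the lowest in all 3 groups. Fresh cells and DMEM/F12 spheroids did not overlap, whereas incubation medium spheroids overlapped both other groups. The log2 fold change against fresh cells was -1.28 in DMEM/F12 (SE 0.215, edgeR adjusted p = 9.42e-05) and -0.89 in incubation medium (SE 0.211, edgeR adjusted p = 0.00165). Between the media the difference was 0.39 with a 95% interval of -0.07 to 0.86 (edgeR adjusted p = 0.211). With the replicate number as a block it was 0.37 (edgeR adjusted p = 0.0483), which passed the threshold.

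HERPUD1 sits in the ER membrane and helps to assemble the ERAD complex around the ubiquitin ligase SYVN1. Its levels were 951, 1167, 731 and 539 CPM in fresh cells, 89.5, 86.0, 91.3 and 79.7 CPM in DMEM/F12 spheroids, and 139, 132, 114 and 134 CPM in incubation medium spheroids. The groups did not overlap, and the fresh libraries had the same order as for HSPA5, replicate 2 first and replicate 4 last. The log2 fold change was -3.29 in DMEM/F12 (SE 0.190, edgeR adjusted p = 3.22e-09) and -2.71 in incubation medium (SE 0.185, edgeR adjusted p = 1.45e-08), or 9.78-fold and 6.54-fold lower. The difference between the media was 0.58 with a 95% interval of 0.20 to 0.96 (edgeR adjusted p = 0.0279). That call was lost, at edgeR adjusted p-values from 0.0534 to 0.0719, when DMEM/F12 replicate 2 or 4 or incubation medium replicate 1, 2 or 4 was left out, with differences between 0.54 and 0.58.

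XBP1, the transcription factor activated by IRE1, stood at 447, 452, 389 and 448 CPM in fresh cells. It stood at 145, 145, 154 and 162 CPM in DMEM/F12 spheroids, and at 174, 162, 173 and 208 CPM in incubation medium spheroids. Both kinds of spheroid lay below every fresh library, and they overlapped each other narrowly, at 162 CPM. The fresh libraries differed little, at 434 ± 30.2 CPM (SD, n = 4). XBP1 was 2.87-fold lower in DMEM/F12 spheroids, a log2 fold change of -1.52 (SE 0.0904, edgeR adjusted p = 4.17e-09), and 2.42-fold lower in incubation medium spheroids, at -1.28 (SE 0.0898, edgeR adjusted p = 1.93e-08). Between the media the difference was 0.24 with a 95% interval of 0.05 to 0.44 (edgeR adjusted p = 0.0597). It passed the threshold with the replicate number as a block, at 0.24 (edgeR adjusted p = 0.0324), and without incubation medium replicate 2, at 0.29 (edgeR adjusted p = 0.0461). DESeq2's Wald test also called it, at 0.24 (adjusted p = 0.029).

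DDIT3 encodes CHOP, a transcription factor downstream of PERK and ATF4 that is linked to cell death under lasting stress. It stood at 108, 190 (fresh replicate 2), 142 and 123 CPM in fresh cells, a mean of 141 ± 35.6 CPM (SD, n = 4). The DMEM/F12 spheroids held 17.6, 17.3, 20.9 and 18.4 CPM, and the incubation medium spheroids held 49.4, 36.2, 31.4 and 38.2 CPM. The 3 groups were separate. DDIT3 was 7.60-fold lower in DMEM/F12, a log2 fold change of -2.93 (SE 0.178, edgeR adjusted p = 5.12e-09), and 3.63-fold lower in incubation medium, at -1.86 (SE 0.168, edgeR adjusted p = 2.18e-07). Of the 6 genes it had the largest difference between the media, 2.09-fold higher in incubation medium, a log2 difference of 1.06 (SE 0.177, edgeR adjusted p = 0.000621), and 97.7% of all genes tested had a lower one.

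**Figure D2:**
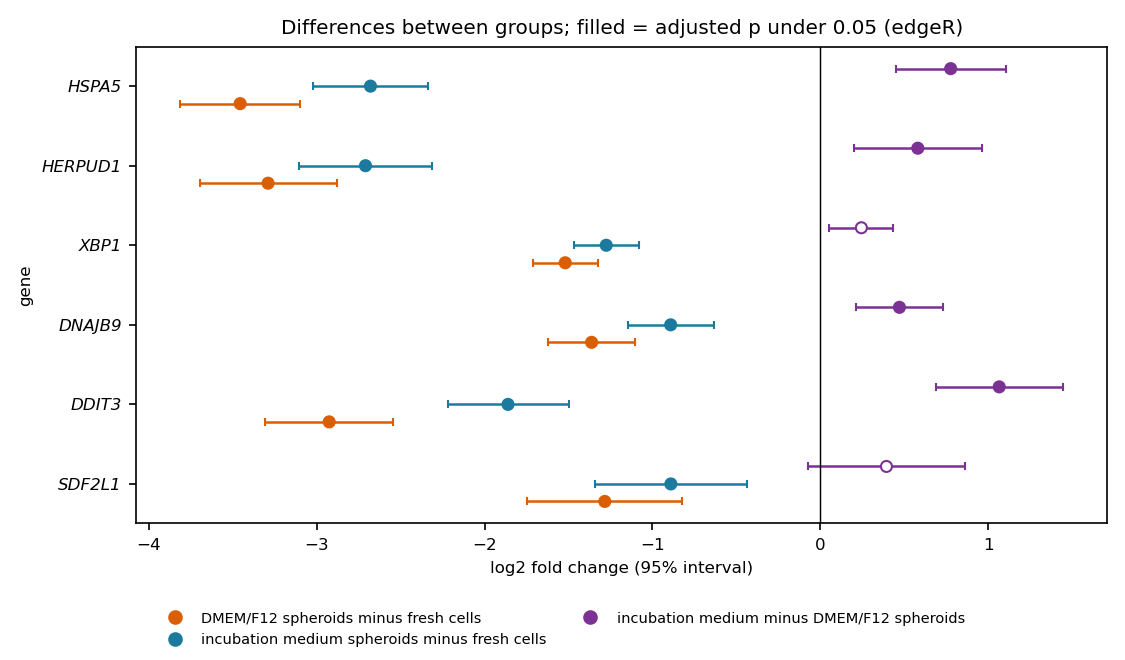
Log2 fold change (x axis) of each gene (y axis) in the 3 comparisons, from edgeR, with 95% intervals. Filled points have an adjusted p under 0.05 and open points do not. All points against fresh cells are filled and lie between -3.46 and -0.89, and the 6 points between the media lie from 0.24 to 1.06, open for XBP1 and SDF2L1.

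As a set, 6 of 6 genes were called lower in DMEM/F12 spheroids than in fresh cells, where 35.7% of all genes tested were called lower. In incubation medium spheroids 6 of 6 were again called lower, against 35.8% of all genes tested. The median log2 fold change of the 6 was -2.22 and -1.57, against -0.01 for all genes in both comparisons. The groups did not overlap for 6 genes in DMEM/F12 (32.9% of all genes were lower without overlap) and for 5 in incubation medium (32.5%). Between the media 4 of 6 were called higher in incubation medium, against 12.7% of all genes tested, and the same number did not overlap, against 13.9%. The median difference of the 6 was 0.53, and that of all genes was below 0.01 in size. With the replicate number as a block 6 of 6 were called between the media. That fit called 4613 genes in all in either direction, against 1791 higher and 1731 lower without the block. Both comparisons with fresh cells use the same 4 fresh libraries, so that they are not separate evidence on a gene. The 6 genes were chosen with earlier results of these data known, so these counts and medians describe them and are no test of the set.

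Other measurements also differed between fresh cells and spheroids. The secretory cell markers OVGP1, SLPI and MUC1, the 3 of a list of 6 that had a row, summed to 18940 to 29980 CPM in fresh cells, 984 to 2016 in DMEM/F12 spheroids and 963 to 2010 in incubation medium spheroids. MUC1 went the other way, at 159, 545 and 474 CPM on average. Multiciliated cell markers (6 of 9 with a row) summed to 1175 to 1321 CPM in fresh cells and to at most 394 in either spheroid group. In such bulk libraries, fewer cells of a type and less RNA per cell cannot be told apart. Immediate early genes, which respond within minutes to handling and growth factors, summed to 23050 to 31940 CPM in fresh cells and 1255 to 1499 in the spheroids (10 of 12 with a row). Among them IER3 went the other way, at 165 to 414 CPM in fresh cells and 644 to 753 in the spheroids. Cytosolic heat shock genes (9 of 11) summed to 17800 to 23880 CPM in fresh cells, 3704 to 4410 in DMEM/F12 spheroids and 2943 to 3779 in incubation medium spheroids. The part of these in the lower levels of the 6 genes was not tested.

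Markers of cells that could have been mixed in were also read, since plasma cells express much XBP1. The plasma and B cell list (9 of 9) summed to 446 to 489 CPM in fresh cells, 420 to 485 in DMEM/F12 spheroids and 505 to 607 in incubation medium spheroids, nearly all of it CD79A. The plasma cell gene JCHAIN averaged 6.65, 4.69 and 3.96 CPM in the 3 groups, MS4A1 was at 0 in all fresh libraries and PAX5 in all DMEM/F12 libraries. T cell and myeloid markers (6 of 11) summed to at most 27.6 CPM in fresh cells and 15.0 in spheroids. Stromal markers (6 of 10) summed to 60.2 to 94.9 CPM in fresh cells, with DES at 0, to 12.7 to 35.5 in DMEM/F12 spheroids and to 7.26 to 13.0 in incubation medium spheroids. Endothelial markers (5 of 5) summed to 41.6 to 57.5 CPM in fresh cells, 136 to 252 in DMEM/F12 spheroids and 91.2 to 148 in incubation medium spheroids, with VWF at 0 in fresh and DMEM/F12 libraries. The higher endothelial sum in spheroids lay in KDR and CDH5. PECAM1 went the other way, at 14.1 to 16.1 CPM in fresh cells and 6.48 to 8.89 in DMEM/F12 spheroids. It held 7.14 to 8.74 CPM in incubation medium spheroids, and TEK, at most 1.92 CPM in any library, was also lower in spheroids. The part of all these markers in the differences was not tested.

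The spheroid libraries, in which the 6 genes were lower, were also the deeper ones. With every library thinned to 1 total, HSPA5 had a log2 fold change of -3.49 in DMEM/F12 (edgeR adjusted p = 2.71e-10) and -2.70 in incubation medium (edgeR adjusted p = 2.21e-09). All 6 genes were again called lower in both. Thinning leaves the expected CPM of a gene unchanged, so it shows only that the calls did not need the extra counts. Depth went with group, so its part in the differences cannot be told apart.

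Within groups, most of the scatter of HSPA5 and HERPUD1 lay among the fresh libraries. Of the squared deviations of log2 CPM from the group means, fresh cells held 87.7% for HSPA5 and 91.0% for HERPUD1, 58.0% for DDIT3, 53.2% for SDF2L1, 50.5% for DNAJB9 and 26.4% for XBP1, against a median of 32.2% over all genes. The deviations of HSPA5 and HERPUD1 had a Pearson r of 0.88 over the 12 libraries and of 0.17 over the 8 spheroid libraries. Among the 15 pairs of genes, r ran from -0.62 (XBP1 with SDF2L1) to 0.88, with a median of 0.26, and 13 pairs were above 0. These points share their library and its depth, and r is given as a description.

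**Figure D3:**
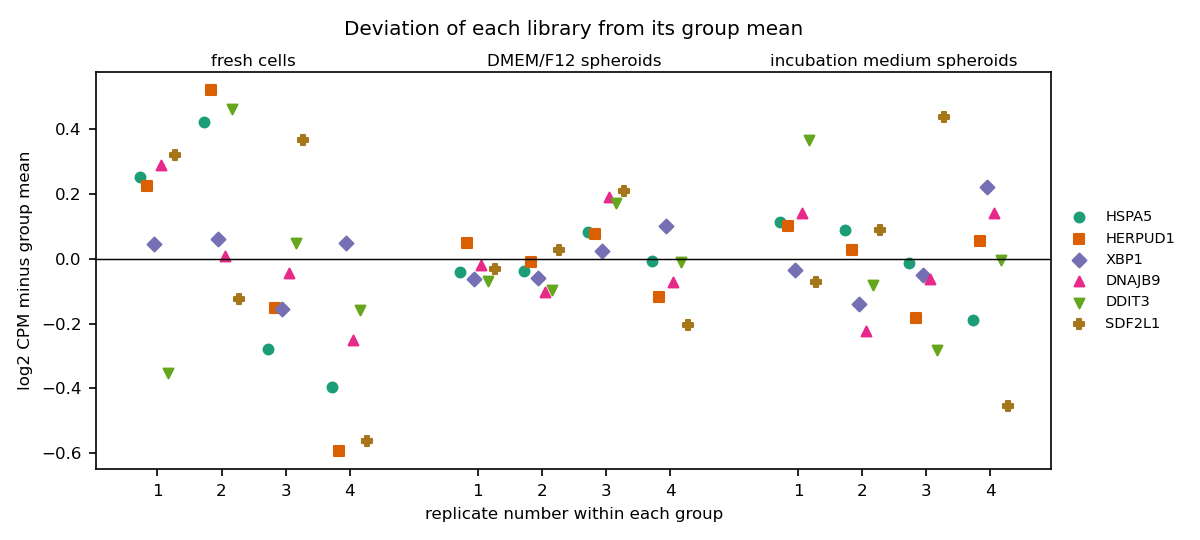
Deviation of each gene's log2 CPM (y axis) from its own group mean in each of the 12 libraries (x axis), with 1 symbol and colour per gene. In fresh cells HSPA5 and HERPUD1 lie above their mean in replicates 1 and 2 and below it in replicates 3 and 4, and SDF2L1 is highest in replicate 3 and lowest in replicate 4 of every group.

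Fresh replicates 1 and 2, the higher pair for HSPA5 and HERPUD1, were also the 2 deepest fresh libraries. Their cytosolic heat shock genes summed to 21930 and 23880 CPM, against 17800 and 18670 CPM in replicates 3 and 4. With fresh replicates 3 and 4 only, a choice made after seeing the data, HSPA5 had a log2 fold change of -3.07 in DMEM/F12 (edgeR adjusted p = 6.68e-10) and -2.29 in incubation medium (edgeR adjusted p = 8.13e-09). HERPUD1 had -2.87 (edgeR adjusted p = 8.31e-09) and -2.28 (edgeR adjusted p = 4.72e-08). All 6 genes were still called lower in both media.

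The genes whose deviations from the group means were most like those of each member were sought among 5544 genes with a symbol and a mean of at least 20 CPM. For HSPA5 these were MCU (r = 0.963), ING5 (0.958) and STK17A (0.950). For HERPUD1 they were WLS (0.931), VCL (0.922) and TXNL1 (0.918), and for XBP1 they were R3HDM4 (0.952), GRK2 (0.917) and FBXO30 (0.898). DNAJB9 was most like CALU (0.949), ZNF354A (0.913) and ACTG1 (0.890), DDIT3 like HEATR6 (0.893), MKNK2 (0.883) and NFAT5 (0.870), and SDF2L1 like DPM1 (0.974), C7H14orf93 (0.964) and CNIH1 (0.962). None of them was on the pathway lists below. Each r is the highest of many over 12 libraries, so it is high by selection. Against fresh cells, where all 6 members were lower in both media, 5 of these 18 genes were called lower in both (ING5, WLS, FBXO30, ZNF354A and NFAT5). Another 8 were called higher in both and 5 were neither. Of all genes tested, 35.7% were called lower in DMEM/F12 and 35.8% in incubation medium, and 35.1% and 35.8% higher. The share of all genes called in both media was not counted. For HSPA5, ING5 had log2 fold changes of -1.31 (edgeR adjusted p = 4.68e-07) and -1.19 (edgeR adjusted p = 1.17e-06), and MCU had 2.18 (edgeR adjusted p = 3.83e-09) and 2.00 (edgeR adjusted p = 7.95e-09).

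The other genes of the pathway, on 8 lists with 141 genes, of which 105 were tested, did not share one direction against fresh cells. In DMEM/F12 spheroids 32 were called higher and 41 lower, with a median log2 fold change of -0.09, and in incubation medium spheroids 48 were higher and 25 lower, with a median of 0.19. Between the media 44 (41.9%) were called higher in incubation medium and 5 lower, with a median of 0.30. Of all genes tested, 35.1% were higher and 35.7% lower in DMEM/F12 than in fresh cells, 35.8% higher and 35.8% lower in incubation medium, and 12.7% higher and 12.3% lower between the media. The plot of the pathway lists shows each gene.

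**Figure D4:**
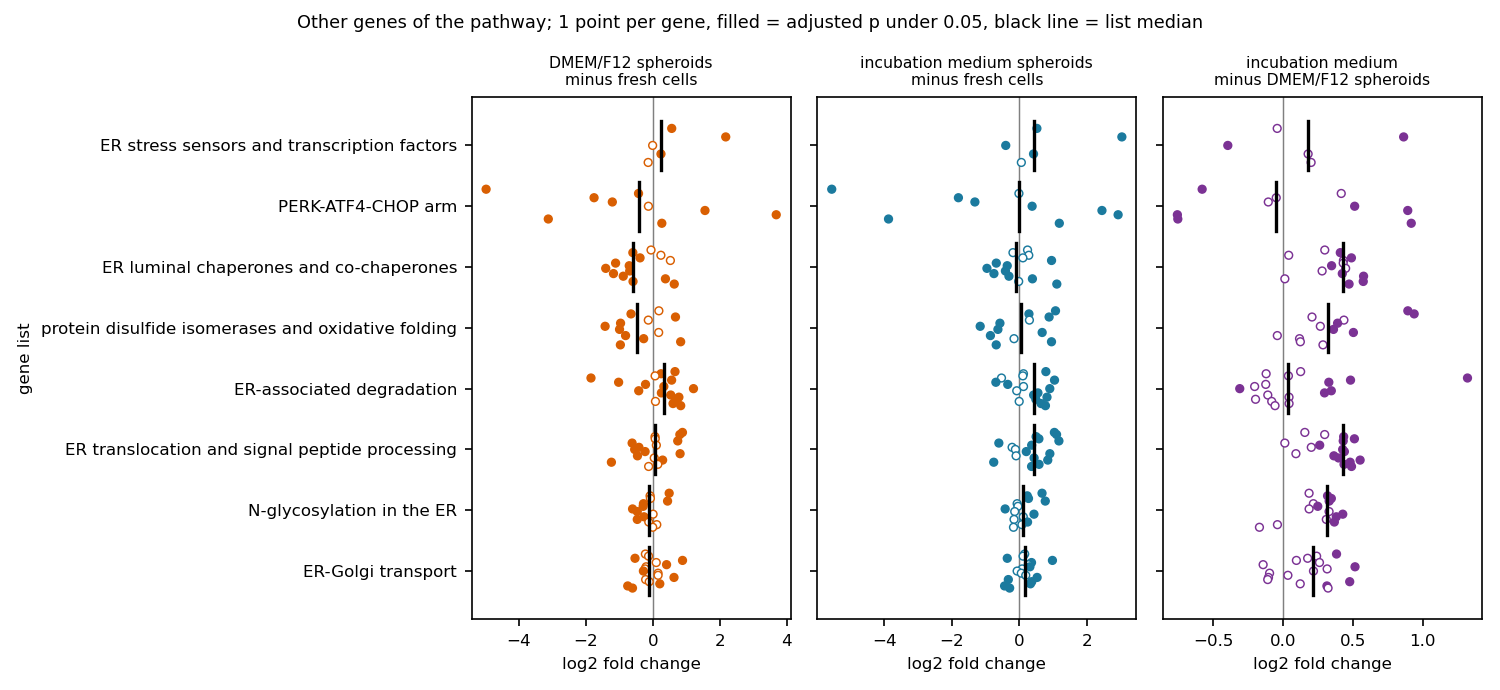
Log2 fold change of every tested gene of the 8 pathway lists (x axis, with a narrower range in the panel between the media), 1 panel per comparison and 1 row per list. Filled points have an edgeR adjusted p under 0.05 and black lines are list medians. Points against fresh cells lie on both sides of 0, and 44 of the 49 called points between the media lie above 0.

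Stress sensors and their relatives were represented by 5 tested genes, of which 3 were higher in each medium than in fresh cells and 1 was lower in incubation medium. ERN1, EIF2AK3 and ATF6, which encode IRE1, PERK and ATF6, had no row by symbol and were not analysed here. ATF6B, a relative of ATF6, averaged 37.2 ± 4.16 CPM in fresh cells, 54.8 ± 4.49 in DMEM/F12 and 53.1 ± 6.88 in incubation medium (SD, n = 4), and was called higher in both. CREB3L1, a membrane-bound transcription factor of secretory cells, averaged 7.72 ± 1.89, 34.8 ± 4.30 and 63.2 ± 13.4 CPM (SD, n = 4), with log2 fold changes of 2.17 (edgeR adjusted p = 1.68e-07) and 3.04 (edgeR adjusted p = 5.92e-09). MBTPS1, the protease that begins the cleavage of ATF6, was higher by 0.24 in DMEM/F12 (edgeR adjusted p = 0.0356) and 0.42 in incubation medium (edgeR adjusted p = 0.00116). The DMEM/F12 call was lost with thinned counts, at 0.22 (edgeR adjusted p = 0.0616), with genes under a mean of 10 counts left out, at 0.21 (edgeR adjusted p = 0.0589), and without fresh replicate 2, 3 or 4 or DMEM/F12 replicate 1 or 4, at 0.20 to 0.25. CREB3L2 was lower in incubation medium than in both fresh cells and DMEM/F12 spheroids, by log2 fold changes of -0.40 each (edgeR adjusted p = 0.00157 and 0.00732).

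In the PERK-ATF4-CHOP arm 9 of 12 genes were tested, 3 higher and 5 lower in DMEM/F12 and 4 each way in incubation medium. ATF3, a stress-induced partner of CHOP, averaged 3293 ± 740.5 CPM in fresh cells, 104 ± 2.74 in DMEM/F12 and 69.7 ± 6.92 in incubation medium (SD, n = 4), with log2 fold changes of -4.98 (edgeR adjusted p = 7.53e-12) and -5.56 (edgeR adjusted p = 3.58e-12). PPP1R15A, or GADD34, which restores translation after PERK acts, averaged 1381 ± 232, 158 ± 5.42 and 93.8 ± 10.2 CPM (SD, n = 4). NUPR1, a stress-induced chromatin protein, went the other way, with 282 ± 80.2, 3623 ± 1043 and 2144 ± 624 CPM (SD, n = 4) and log2 fold changes of 3.68 (edgeR adjusted p = 4.08e-08) and 2.93 (edgeR adjusted p = 2.89e-07). ATF4 itself averaged 461 ± 110, 342 ± 47.0 and 457 ± 25.7 CPM, and was called lower in DMEM/F12, at -0.43 (edgeR adjusted p = 0.017), and not in incubation medium, at -0.01 (edgeR adjusted p = 0.935). The first call was lost without fresh replicate 2, at -0.28 (edgeR adjusted p = 0.0783), without DMEM/F12 replicate 1, at -0.33 (edgeR adjusted p = 0.0646), and with fresh replicates 3 and 4 only, at -0.16 (edgeR adjusted p = 0.337). The difference of ATF4 between the media, 0.42, did not pass (edgeR adjusted p = 0.0515). It passed with the replicate block, at 0.42 (edgeR adjusted p = 0.0137), without fresh replicate 2 or 4, at 0.42 each (edgeR adjusted p = 0.0253 and 0.0187), and in the fit of the 2 spheroid groups alone (edgeR adjusted p = 0.0134). DESeq2 (adjusted p = 0.0361) and limma-voom (adjusted p = 0.0428) called it as well. ATF4, CHAC1, SESN2 and CEBPG are named after their values were seen.

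Between the media, 3 of the 9 tested genes of this list were called higher in incubation medium, 3 lower and 3 neither. Those higher were CHAC1, a target of ATF4 that breaks down glutathione, SESN2, a stress-induced regulator of growth signalling, and CEBPG, a transcription factor that pairs with ATF4. The log2 difference was 0.51 for CEBPG (edgeR adjusted p = 0.000655), 0.89 for CHAC1 (edgeR adjusted p = 0.00263) and 0.92 for SESN2 (edgeR adjusted p = 1.95e-05). ATF3, PPP1R15A and NUPR1 were lower in incubation medium, at -0.58 (edgeR adjusted p = 0.00491), -0.75 (edgeR adjusted p = 0.000354) and -0.76 (edgeR adjusted p = 0.0413). The call of NUPR1 was lost without DMEM/F12 replicate 1, 2 or 4 or incubation medium replicate 2, 3 or 4, with differences of -0.61 to -0.81.

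Of the luminal chaperones and co-chaperones, 14 of 19 were tested. Against fresh cells 9 were lower and 2 higher in DMEM/F12 (median log2 fold change -0.60), and 6 were lower and 3 higher in incubation medium (median -0.11). Between the media 7 were higher in incubation medium and none was lower (median 0.43), and with the replicate number as a block 11 were higher. PPIB, a prolyl isomerase, averaged 687 ± 103, 372 ± 18.2 and 554 ± 26.7 CPM in fresh cells, DMEM/F12 and incubation medium (SD, n = 4). MANF, a secreted target of the response, averaged 428 ± 98.3, 189 ± 10.8 and 254 ± 25.1 CPM (SD, n = 4) and was lower in both media, at -1.18 (edgeR adjusted p = 4.13e-06) and -0.75 (edgeR adjusted p = 0.000242). CANX, the lectin chaperone calnexin, was lower in DMEM/F12 at -0.60 (edgeR adjusted p = 2.03e-05), and at -0.19 in incubation medium (edgeR adjusted p = 0.0569), which passed without fresh replicate 2, at -0.23 (edgeR adjusted p = 0.0337), with library totals, at -0.21 (edgeR adjusted p = 0.0391), with genes under a mean of 10 counts left out, at -0.22 (edgeR adjusted p = 0.0308), and with thinned counts, at -0.23 (edgeR adjusted p = 0.0291). FKBP14, another prolyl isomerase, was lower in both, at -1.12 and -0.69 (edgeR adjusted p = 1.5e-05 and 0.000934). Its difference between the media, 0.43 (edgeR adjusted p = 0.0556), passed with the replicate block at 0.42 (edgeR adjusted p = 0.0114), in the fit of the 2 spheroid groups alone (edgeR adjusted p = 0.0362) and without fresh replicate 1 or 3 or incubation medium replicate 1, at 0.43 to 0.52. HSP90B1 and DNAJC3 were among the genes with no row by symbol, and were not analysed here.

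Protein disulfide isomerases and oxidases, which form and rearrange disulfide bonds, had 12 of 17 genes tested. In DMEM/F12 7 were lower and 2 higher, and in incubation medium 5 were lower and 5 higher. PDIA6 averaged 578 ± 112, 289 ± 29.3 and 372 ± 24.3 CPM (SD, n = 4), PDIA4 averaged 375 ± 77.5, 192 ± 14.5 and 251 ± 23.1 CPM, and PDIA5 averaged 141 ± 43.1, 52.4 ± 4.84 and 63.1 ± 8.95 CPM, and each of the 3 was called lower in both media. P4HB averaged 305 ± 16.6, 277 ± 15.8 and 375 ± 122 CPM and was called in neither, with 557 CPM in incubation medium replicate 4. Without incubation medium replicate 2 or 3 it was called higher there than in fresh cells, at 0.40 (edgeR adjusted p = 0.04) and 0.39 (edgeR adjusted p = 0.0468), and likewise without a filter, at 0.36 (edgeR adjusted p = 0.0406). ERO1A, the oxidase that recharges the isomerases, was higher in incubation medium at 1.07 (edgeR adjusted p = 0.00611), but at 0.55 without incubation medium replicate 4 (edgeR adjusted p = 0.00586), which held 194 CPM against a group median of 76.8. Between the media 5 were higher and none lower. That number was 2 or 3 without any of fresh replicate 2, DMEM/F12 replicates 2 to 4 and incubation medium replicates 1 and 4, 2 with library totals in place of TMM and 8 with the replicate block, under which P4HB was called at 0.40 (edgeR adjusted p = 0.0186). P4HB was also called between the media by DESeq2 (adjusted p = 0.0369), without a filter (edgeR adjusted p = 0.0488) and without incubation medium replicate 2 or 3 (edgeR adjusted p = 0.0365 and 0.0403).

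ERAD genes, the list that HERPUD1 works with, mostly lay on the other side of fresh cells from HERPUD1. Of 25 genes 17 were tested, and 11 were higher and 4 lower in DMEM/F12 (median log2 fold change 0.33), and 9 higher and 2 lower in incubation medium (median 0.42). VCP, the ATPase that pulls proteins out of the ER membrane, averaged 224 ± 17.2, 398 ± 13.0 and 382 ± 34.6 CPM (SD, n = 4), and its cofactor NPLOC4 averaged 28.6 ± 2.52, 66.2 ± 9.79 and 53.4 ± 3.32 CPM. EDEM3, which trims mannose from misfolded glycoproteins, was higher by 0.56 (edgeR adjusted p = 0.0108) and 1.04 (edgeR adjusted p = 8.64e-05), the first not called with fresh replicates 3 and 4 only, at 0.28 (edgeR adjusted p = 0.175). TRAM1, which sits at the translocation channel, was higher by 0.25 (edgeR adjusted p = 0.0389) and 0.55 (edgeR adjusted p = 0.000232), and the first call was lost with thinned counts, at 0.22 (edgeR adjusted p = 0.0571), and without fresh replicate 2 or 4 or DMEM/F12 replicate 3, at 0.19 to 0.23. It was also lost with genes under a mean of 10 counts left out (edgeR adjusted p = 0.0643), in the fit of the 2 groups alone (edgeR adjusted p = 0.0553) and with fresh replicates 3 and 4 only (edgeR adjusted p = 0.0714). The ligase SYVN1 was lower in DMEM/F12, at -0.42 (edgeR adjusted p = 0.000197), and was not called in incubation medium, at -0.08 (edgeR adjusted p = 0.367). Between the media 5 were higher and 1, NPLOC4, was lower, at -0.31 (edgeR adjusted p = 0.0411). The 5 became 3 with library totals and without fresh replicate 2, DMEM/F12 replicate 1, 2 or 4 or incubation medium replicate 1, 2 or 4. NPLOC4 was not called without fresh replicate 3 or 4, DMEM/F12 replicate 1, 2 or 4 or incubation medium replicate 1, 2 or 4, with differences of -0.21 to -0.32, nor without a filter (edgeR adjusted p = 0.0555) or in the fit of the 2 spheroid groups alone (edgeR adjusted p = 0.0564).

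Translocation and signal peptide genes, which bring new chains into the ER, had 17 of 18 tested. In DMEM/F12 5 were higher and 6 lower, and in incubation medium 12 were higher and 2 lower. Between the media 12 were higher and none lower (median 0.43). SEC61B and SEC61G, small subunits of the channel, averaged 506 ± 64.8, 530.5 ± 21.9 and 756 ± 40.8 CPM and 233 ± 45.2, 390.1 ± 39.0 and 526 ± 51.8 CPM (SD, n = 4). SSR4, of the translocon-associated complex, averaged 503 ± 36.8, 459.6 ± 47.6 and 645 ± 37.8 CPM. SSR2, of the same complex, was lower than in fresh cells in both media, at -1.24 (edgeR adjusted p = 1.9e-08) and -0.76 (edgeR adjusted p = 2.11e-06).

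N-glycosylation genes had 14 of 17 tested, 2 higher and 6 lower in DMEM/F12 and 6 higher and 1 lower in incubation medium. Without a filter on low counts 3 were lower in DMEM/F12, and with thinned counts, or without fresh replicate 2 or 4, 3 were higher in incubation medium. Without fresh replicate 4, 2 were lower in incubation medium. Between the media 7 were higher and none lower, or 4 higher with library totals and without DMEM/F12 replicate 4 or incubation medium replicate 3. OSTC and DDOST, subunits of the oligosaccharyltransferase, averaged 216 ± 17.9, 217 ± 18.5 and 291 ± 16.7 CPM and 367 ± 50.9, 348 ± 31.7 and 442 ± 26.2 CPM (SD, n = 4). KRTCAP2, of the same enzyme, was lower in DMEM/F12, at -0.29 (edgeR adjusted p = 0.00689), and at -0.22 with no filter (edgeR adjusted p = 0.0615). GANAB, a glucosidase that trims new glycans, and ALG5 were higher in both media, GANAB at 0.44 (edgeR adjusted p = 4.43e-05) and 0.77 (edgeR adjusted p = 1.71e-07), and ALG5 at 0.48 (edgeR adjusted p = 0.00522) and 0.67 (edgeR adjusted p = 0.000447).

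ER-Golgi transport genes had 17 of 22 tested, 4 higher and 4 lower in DMEM/F12 and 6 higher and 4 lower in incubation medium. Requiring a mean of at least 10 counts gave 7 lower in DMEM/F12, and fresh replicates 3 and 4 only, or no filter, gave 2 lower in incubation medium. KDELR1, a receptor that returns escaped ER proteins such as HSPA5, averaged 139 ± 29.3, 257 ± 29.8 and 274 ± 46.3 CPM (SD, n = 4), with log2 fold changes of 0.88 (edgeR adjusted p = 9.63e-05) and 0.98 (edgeR adjusted p = 3.7e-05), opposite in sign to those of HSPA5. KDELR2 averaged 262 ± 41.9, 281 ± 9.32 and 336 ± 6.89 CPM, and the cargo receptor TMED10 averaged 633 ± 66.7, 414 ± 65.1 and 518 ± 51.6 CPM. SEC24D, a coat protein of transport vesicles, was lower in both media, at -0.75 (edgeR adjusted p = 8.16e-06) and -0.44 (edgeR adjusted p = 0.000921). Between the media 4 were higher and none lower, or 2 higher with library totals and without DMEM/F12 replicate 4 or incubation medium replicate 1. With the replicate block 7 were higher, among them KDELR2 at 0.26 (edgeR adjusted p = 0.035) and TMED10 at 0.33 (edgeR adjusted p = 0.00852). KDELR2 was also called in the fit of the 2 spheroid groups alone (edgeR adjusted p = 0.013) and without fresh replicate 4 (edgeR adjusted p = 0.0141). TMED10 was also called by DESeq2 (adjusted p = 0.0407), by limma-voom (adjusted p = 0.043) and without DMEM/F12 replicate 1, at 0.43 (edgeR adjusted p = 0.0132).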

How the data were processed

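Per the file headers, the authors deposited a count, treated here as an expected count, and a CPM per gene and library. The word expected is not in the headers and was inferred from values that were not whole. In each library 19.1 to 20.5% of nonzero counts were not whole, so they were rounded to whole numbers, although raw counts had been planned for. The deposited CPM was not tested, and CPM here was recomputed from the counts with TMM. Per the submitters' processing notes, fastp 0.24.0, STAR 2.7.11, SAMtools 1.22.1 and featureCounts of Subread 2.1.1 were used. The genome build and the use of strand or molecular identifiers are not given in the sources used here, so overlapping genes and near-identical copies may share reads. Of the 6 genes' counts at most 0.271% were fractional remainders (SDF2L1). The table held 30553 rows, 92 of them spike-ins (at most 0.000614% of counts), which were left out. A symbol was missing for 56.5% of the gene rows.

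One edgeR 4.0.16 quasi-likelihood fit (R 4.3.3, filterByExpr, TMM, no block) held all 12 libraries. The fit was also tried on data simulated for DMEM/F12 against fresh cells, with 13796 genes. There it recovered 48.8% of 80 genes changed 1.5-fold, 87.3% of 55 changed 2-fold and all 65 changed 4-fold, with 12 false calls. For the measured libraries a far larger share passed the threshold, 35.1% upward and 35.7% downward. Recovery and false calls with so many changed genes were not tested, so the simulated figures do not give the error rates of this comparison. Alternatives used DESeq2 1.42.0 and limma 3.58.1. The members and lists were chosen with earlier results of these data known. Named from each list were the 3 tested genes of highest mean CPM and the 2 with the largest change against fresh cells in either medium among those with a mean of at least 20 CPM, and for each member the 3 genes of most alike deviations.

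The labels number the libraries 1 to 4 in each group without saying what a number shares. Same-numbered libraries deviated together across genes in all 4 pairs of each comparison (r 0.226 to 0.284 for DMEM/F12 with fresh cells, 0.196 to 0.293 for incubation medium with fresh cells and 0.394 to 0.516 between the media), so the numbers were taken to pair the libraries. A replicate block is given where it changes the call of a named gene, and for the list counts that it changed most. Smaller changes of list counts are not printed with the lists. For N-glycosylation between the media, 9 genes were higher with the block and 7 without. Values printed without a setting come from the fit with no block. Between the media that fit called 1791 genes higher and 1731 lower, and the fit with the block called 4613 in either direction. Nothing says that libraries came from separate animals, so p-values measure only the spread between these libraries, which may be technical.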

Additional observations from a re-analysis of the deposited data

Results flagged for a closer look

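The 2 kinds of spheroid differed in the level of 4 of the 6 genes by a test of the difference itself. The log2 difference, incubation medium minus DMEM/F12, was 0.78 for HSPA5, 0.58 for HERPUD1, 0.47 for DNAJB9 and 1.06 for DDIT3, each with an edgeR adjusted p under 0.05, where 12.7% of all genes tested were called higher. In each of the 4 genes, every incubation medium library lay above every DMEM/F12 library, as in 13.9% of all genes. The call of HERPUD1 was lost, at edgeR adjusted p-values of 0.0534 to 0.0719, in 5 of the 12 fits that left out 1 library. All 5 were among the fits that left out 1 of the 8 spheroid libraries, the only libraries in this comparison. With the replicate number as a block, all 6 genes were called, in a fit that called 4613 of the 14070 genes tested in either direction.

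A few libraries stood apart from the other 3 of their group by Dixon's test, at its 95% critical value. Among the 18 groups of the 6 genes this was so for 1, XBP1, where fresh replicate 3 held 389 CPM and the other fresh libraries 447 to 452 CPM. Among the named pathway genes, fresh replicate 3 held 122 CPM of CREB3L2, fresh replicate 2 held 4393 CPM of ATF3, and fresh replicate 4 held 330.0 CPM of P4HB. In the spheroids, incubation medium replicate 4 held 557 CPM of P4HB, incubation medium replicate 2 held 109 CPM of PPP1R15A, and DMEM/F12 replicate 3 held 36.1 CPM of EDEM3. In all, 7 of 120 groups were past the threshold, and chance gives about 1 in 20.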

How the results depend on the processing

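Against fresh cells, all 6 genes kept their direction and call under the 23 settings tried, with HSPA5 between -3.58 and -3.07 in DMEM/F12 and between -2.80 and -2.29 in incubation medium. These were 12 that left out 1 library each, 9 other planned ones and 2 chosen after seeing the data (counts thinned to 1 depth, and fresh replicates 3 and 4 only). Between the media, HSPA5, DNAJB9 and DDIT3 kept both under the 22 that applied, and 399 of 408 single-gene values of the 6 did so in all. The 9 others are 5 of HERPUD1 and 4 of XBP1 and SDF2L1. With 1 library left out, HERPUD1 ranged from 0.54 to 0.64 (edgeR adjusted p up to 0.0719), XBP1 from 0.17 to 0.29 and SDF2L1 from 0.23 to 0.53. XBP1 passed the threshold with the replicate block, at 0.24, with DESeq2, at 0.24, and without incubation medium replicate 2, at 0.29, and SDF2L1 with the replicate block, at 0.37. The cause was not tested. Of the pathway genes, 3 to 5 were called lower between the media with 1 library left out (3 without DMEM/F12 replicate 1, 2 or 4 or incubation medium replicate 2 or 4), and those called higher numbered from 31 (library totals) to 58 (replicate block) over all settings. The replicate block changed no call of the 6 genes other than those of XBP1 and SDF2L1, and no call of a named pathway gene other than those printed beside their results. The planned search of promoter motifs was not run, since no sequence table was in the reference used. SDF2L1 had the fewest counts of the 6, which limits what could be detected for it.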
